A study of Mus musculus with 32 samples.

Results

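Notch1, Notch2, Notch3, Jag1, Hes1, Hes5, Hey1, Hey2, Heyl and Lfng, a set of Notch ligand, receptor, modifier and target genes, were followed through RNA sequencing libraries of the mouse cochlea. The genes were chosen by symbol, and all 10 were found among the 39399 genes listed for both mouse strains. The 32 libraries came from 10-week-old mice that carried RiboTag, an allele that puts an HA tag on a ribosomal protein in cells with Cre, so that ribosomes and the RNA on them can be pulled down with an HA antibody. In the Prestin strain (PrestinCre/+;RiboTagHA/+) Cre is driven from the gene of prestin, the motor protein of outer hair cells; in the Sox2 strain (Sox2Cre/+;RiboTagHA/+) it is driven from Sox2, which marks supporting cells. The series' design text calls the drivers PrestinCreERT2 and Sox2CreERT2 and adds CBA to both strains. Every cochlear homogenate gave an aliquot of whole-cochlea RNA (input) and an HA pull-down (IP). Control mice heard no noise. The others were exposed to 105 dB SPL for 2 h and their cochleae were taken 6 h or 24 h later. Each Prestin group held 3 libraries, and the Sox2 groups held 2 IPs and 2 inputs without noise, 2 of each at 6 h and 3 of each at 24 h. Every group thus carried both RiboTag and a Cre driver, and no library came from mice without them.

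Notch is a receptor that is read between touching cells. A ligand such as Jag1 on one cell pulls on the receptor of its neighbour, the receptor is cut, and its inner part enters the nucleus, joins the DNA-binding protein Rbpj and switches on Hes and Hey genes, whose products hold other genes down. Lfng is a Fringe enzyme that adds sugars to the receptor and so alters which ligands it answers to. In the developing organ of Corti, Notch signalling keeps supporting cells from turning into hair cells, with Hes5, Hey1 and Hey2 among the best known targets there, and Jag1 marks the prosensory region and later supporting cells.

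The RefSeq promoter table (GRCm38.p6), which gives 250 bases before and 50 after a gene's start, held 7 of the 10 genes; Hes1, Hey1 and Heyl were not among them. The letters GTGGGAA, the core that Rbpj binds, were searched on both strands. They occurred in the windows of Hes5 (2 matches), Hey2 (2 matches) and Lfng (1 match), and not in those of Notch1, Notch2, Notch3 and Jag1. Of all 32851 promoters in the table, 6.38% held a match, and a match describes letters, not a bound site. These 3 sequences are shown because, of the 7, they hold a match. Each is the 250 bases before the start, 5′ to 3′ on the gene's strand, with matches in capitals (TTCCCAC is the same core on the other strand).
Hes5, chr4:154960673-154960922, plus strand: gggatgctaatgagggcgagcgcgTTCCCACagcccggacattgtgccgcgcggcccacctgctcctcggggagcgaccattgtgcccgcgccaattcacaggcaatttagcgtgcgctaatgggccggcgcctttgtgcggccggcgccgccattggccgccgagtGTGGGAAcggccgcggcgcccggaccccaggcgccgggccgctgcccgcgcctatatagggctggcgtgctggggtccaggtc
Hey2, chr10:30842784-30843033, minus strand: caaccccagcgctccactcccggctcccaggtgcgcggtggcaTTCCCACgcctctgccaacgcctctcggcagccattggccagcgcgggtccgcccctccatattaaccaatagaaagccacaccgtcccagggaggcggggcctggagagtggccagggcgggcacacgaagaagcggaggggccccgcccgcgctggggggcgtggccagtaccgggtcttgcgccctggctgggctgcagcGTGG
Lfng, chr5:140607091-140607340, plus strand: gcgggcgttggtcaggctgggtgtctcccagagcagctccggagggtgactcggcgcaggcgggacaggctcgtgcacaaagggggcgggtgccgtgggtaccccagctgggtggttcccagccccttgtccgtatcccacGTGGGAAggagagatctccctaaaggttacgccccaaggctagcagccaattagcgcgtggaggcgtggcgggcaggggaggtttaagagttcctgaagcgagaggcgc
The matches began 83 and 226 bases before the start of Hes5, 109 before that of Lfng, and 207 and 4 before that of Hey2. The last match of Hey2 runs past the start, so that only its first 4 bases stand at the end of the line. In the GENCODE M21 annotation (GRCm38), Hes5 is a gene of chromosome 4 (154960923 to 154962371), Hey2 of chromosome 10 (30832359 to 30842801), Lfng of chromosome 5 (140607320 to 140615545) and Jag1 of chromosome 2 (137081456 to 137116644), each protein coding. Hes5 overlaps Gm20421, a transcript on the opposite strand that was listed with a mean of 4.87 TPM and at most 19.6 TPM over the 32 libraries. Whether counting used strand is not given in the sources used here, so low values of Hes5 cannot be separated from those of Gm20421.

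Levels are TPM, a gene's share of a library per gene length, so they can be compared between genes. Sequencing depth is unknown, and no counting interval is given. The genes listed above 0 numbered 15929 to 21239 a library, and the 4 Sox2 libraries at 6 h held the lowest numbers of their strain. Mitochondrial genes made up 20.5% to 28.6% of the inputs and 3.07% to 13.7% of the IPs. In the Prestin IPs all 10 outer hair cell markers were higher than in the inputs (median log2 difference 2.38, all genes 0.82). Of 12 supporting cell markers 7 were higher there and 1 lower, with a median of 0.45, below that of all genes. In the Sox2 IPs 11 of 12 supporting cell markers were higher (median 1.99, all genes 0.65), and so were 10 of 10 Schwann and satellite glia markers (median 2.40). Of all genes, 68.5% were higher in the Prestin IPs and 55.2% in the Sox2 IPs. No marker of these lists was at 0 in every library of a group. In bulk RNA, fewer cells of a type and less RNA per cell cannot be told apart. Whether libraries of a group came from separate mice is stated only as biological triplicates, so p-values measure the spread between libraries.

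In the whole cochlea without noise, Hey1, Heyl and Hes1 were the highest of the 10 genes. Their means were 29.0, 24.5 and 23.0 TPM in the 3 Prestin inputs, with overlapping libraries, and 28.2, 29.3 and 25.6 TPM in the 2 Sox2 inputs. Receptors and ligand were lower: Notch1 7.14 TPM, Jag1 5.65 TPM, Notch2 3.82 TPM and Notch3 3.21 TPM in the Prestin inputs. The pull-downs changed that order. Lfng led the Prestin control IPs at 63.4 TPM ± 33.3 (SD, n = 3), its libraries overlapping those of Hes1 (55.0 TPM), Hey1 (51.1 TPM) and Hey2 (48.6 TPM). In the Sox2 control IPs Hey1 (122.4 TPM ± 38.7, SD, n = 2) and Hes5 (120.2 TPM ± 36.5, SD, n = 2) stood first and overlapped each other, followed by Lfng at 93.0 TPM. Among the 4 receptors, Notch1 had the highest mean share of the summed TPM in each of the 12 groups, from 38.6% to 54.1%.

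**Figure D1:**
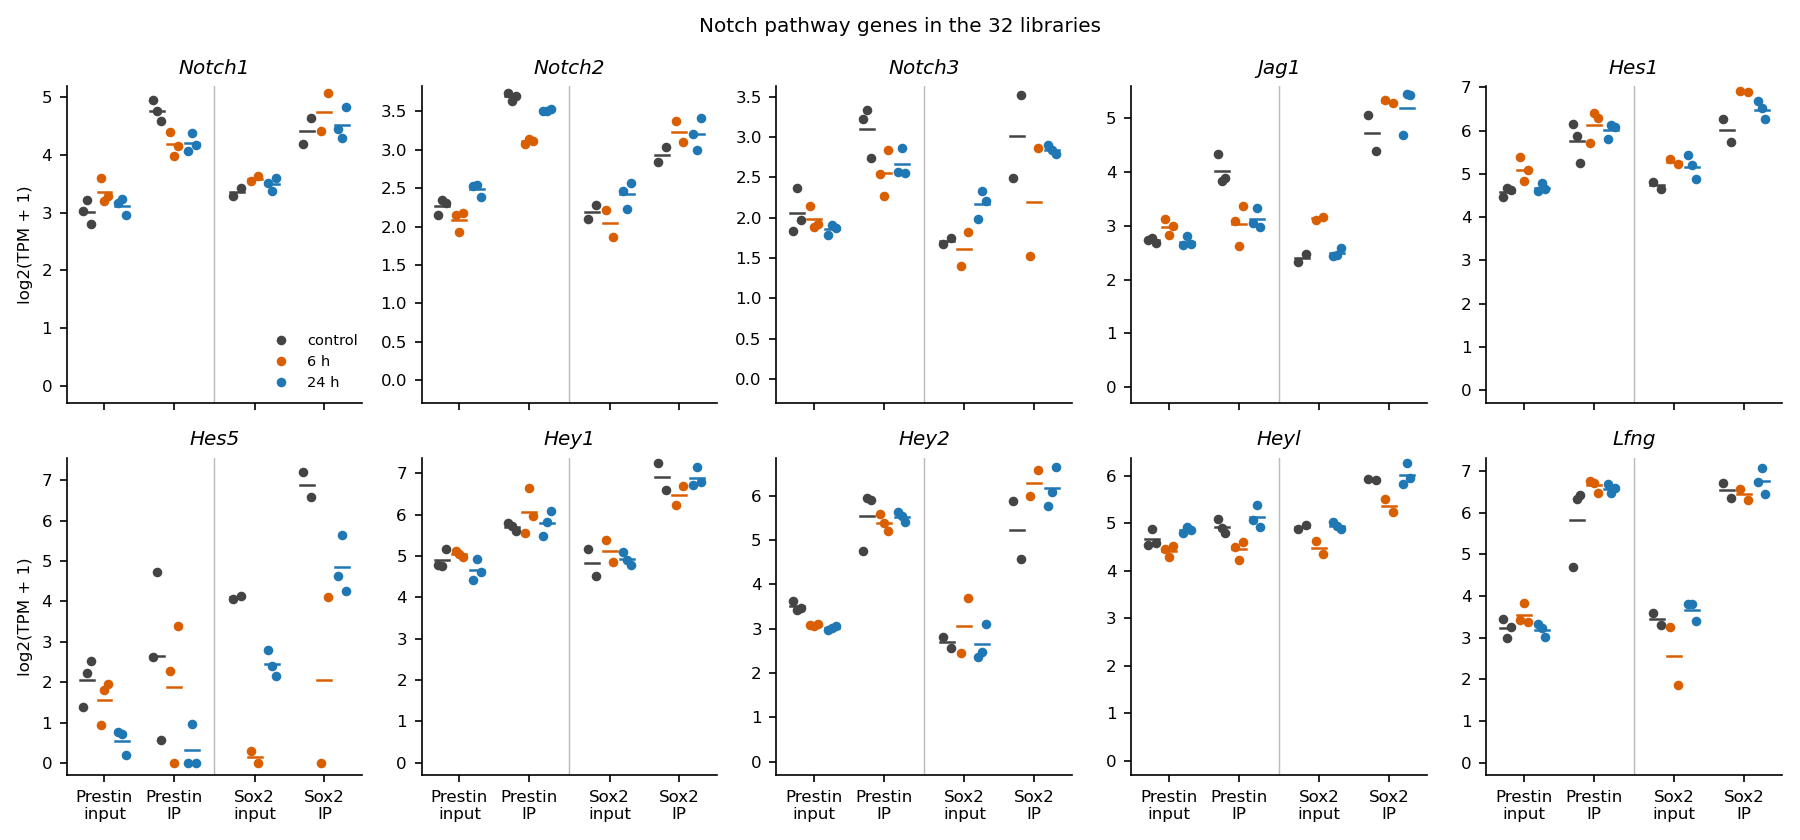
Level of each gene as log2(TPM + 1) in the 32 libraries, 1 point per library, with a short line at the mean of each group. Control is dark grey, 6 h orange and 24 h blue; each panel shows the input and then the IP of the Prestin strain and of the Sox2 strain. Hes5 is at 146 and 94.5 TPM in the Sox2 control IPs and at 0 and 16.4 TPM at 6 h, while Lfng lies above its inputs in every IP.

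The first comparison asked which of these genes the pull-downs concentrate relative to the whole cochlea, over all conditions of a strain. A log2 difference is on the log2(TPM + 1) scale, is given with its standard error, and passed where limma's adjusted p lay under 0.05. In the Prestin strain 9 of 10 genes were higher in the IP, with a median of 1.07 over the 10. Of all 17363 genes tested there, 68.5% were higher, with a median of 0.82, so a rise in itself is common. In the Sox2 strain all 10 were higher, with a median of 1.60, against 55.2% of 18560 genes and a median of 0.65. Median-of-ratios scaling, which sets the typical gene to no change, moved those medians of all genes to 0.05 and 0.02. Under it 3 of the 10 were higher and 2 lower (Jag1 and Heyl) in the Prestin strain, and 6 higher and none lower in the Sox2 strain. The share of higher calls among all called genes went from 89.9% to 50.9% and from 95.3% to 49.9%. Hey2 and Lfng were higher under both scalings in both strains.

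Among the receptors, Notch1 lay between 14.8 and 29.8 TPM in the 9 Prestin IPs (median 19.8) and between 5.95 and 11.2 TPM in their inputs (median 8.22). No IP overlapped the inputs, and the log2 difference was 1.22 ± 0.09 (adjusted p = 1.34e-08). In the Sox2 strain Notch1 was 1.08 ± 0.14 higher (adjusted p = 7.82e-05), again higher in every homogenate. Notch2, a second receptor, was higher by 1.16 ± 0.06 in the Prestin and 0.91 ± 0.12 in the Sox2 strain, and Notch3, known best from the smooth muscle and pericytes of vessels, by 0.81 ± 0.11 and 0.85 ± 0.23. With median-of-ratios scaling these receptor differences shrank to 0.24 (Notch2) and 0.22 (Notch1) in the Prestin strain, where Notch2 still passed (adjusted p = 0.0038) and Notch1 did not (adjusted p = 0.070), and turned to -0.058 for Notch3. None of these receptors passed under it in the Sox2 strain. The call for Notch3 in the Sox2 strain was also lost without control replicate 4 (adjusted p = 0.051). Of 10 pericyte and smooth muscle markers 8 were higher in the Prestin IPs, with a median of 0.75 against 0.82 for all genes; their part in the Notch3 value was not tested.

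Jag1, the ligand of supporting cells, separated the strains most clearly. Its level ran from 20.0 to 42.6 TPM in the 7 Sox2 IPs (median 37.9) and from 4.04 to 7.99 TPM in their inputs (median 4.55). In the 9 Prestin IPs it ran from 5.17 to 19.1 TPM (median 9.03), against 5.22 to 7.78 TPM in the inputs (median 5.88). Every Sox2 IP thus lay above every Prestin IP, while the inputs of both strains overlapped. The log2 differences were 2.39 ± 0.15 in the Sox2 strain (adjusted p = 6.42e-07) and 0.58 ± 0.10 in the Prestin strain (adjusted p = 1.19e-04). The latter turned to -0.37 under median-of-ratios scaling and passed there as lower (adjusted p = 0.010). Jag1 made up 50.4% ± 10.5 of the summed TPM of the 5 Notch ligands in the Sox2 control IPs (SD, n = 2) and 28.1% ± 3.77 in the Prestin control IPs (SD, n = 3), where Jag2 had 35.6%.

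Lfng, the Fringe enzyme, showed the largest enrichment of the 10 genes in both strains. In the 9 Prestin IPs it lay between 25.0 and 107.8 TPM (median 88.7), against 6.99 to 13.3 TPM in the inputs (median 9.04). In the 7 Sox2 IPs it lay between 78.7 and 133.1 TPM, against 2.62 to 13.003 TPM. IP and input did not overlap in either strain. The log2 differences were 3.03 ± 0.19 (adjusted p = 2.21e-09) and 3.35 ± 0.21 (adjusted p = 7.27e-07). A single library, Prestin control IP replicate 1, was low for both Lfng (25.0 TPM, against 80.3 and 84.9) and Hey2 (25.9 TPM, against 60.9 and 58.9), and its summed outer hair cell markers were the highest of the 9 Prestin IPs, at 2225 TPM against 515 to 1243 TPM in the others.

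The targets were spread widely. Hey2 rose by 2.28 ± 0.13 in the Prestin IPs (25.9 to 60.9 TPM, inputs 6.88 to 11.4 TPM) and by 3.09 ± 0.28 in the Sox2 IPs (22.9 to 99.3 TPM, inputs 4.18 to 11.9 TPM), with no overlap in either strain. Hey1 rose by 0.99 ± 0.13 and 1.80 ± 0.16 and Hes1 by 1.18 ± 0.13 and 1.40 ± 0.12, in the order Prestin and Sox2; the Prestin value of Hey1 turned to -0.064 under median-of-ratios scaling, where that of Hes1 (0.13) no longer passed. Heyl, a target known from vascular smooth muscle, was nearly level in the Prestin strain, with 17.8 to 41.02 TPM in the IPs and 18.4 to 29.4 TPM in the inputs. Its log2 difference there was 0.19 ± 0.08 (adjusted p = 0.049). That call was lost in 6 of 9 fits without 1 homogenate (24 h replicates 1 and 2, control replicates 1 and 3, 6 h replicates 1 and 3, adjusted p up to 0.15). The difference became -0.85 with median-of-ratios scaling, passing as lower (adjusted p = 1.17e-06), and -0.0069 without mitochondrial genes and Malat1. In the Sox2 strain Heyl was higher by 0.99 ± 0.09 (36.7 to 76.6 TPM, inputs 19.4 to 31.8 TPM).

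Hes5 was the single target that did not pass in the Prestin strain, at 0.23 ± 0.52 (adjusted p = 0.70), and its sign turned under median-of-ratios scaling (-0.35). It was listed at 0 to 25.3 TPM in the 9 Prestin IPs (median 0.95) and at 0.139 to 4.79 TPM in their inputs, and the IP exceeded its own input in 5 of 9 homogenates. In the Sox2 strain it was higher in 6 of 7 homogenates, by 2.36 ± 0.55 (adjusted p = 0.0039), with IPs from 0 to 146 TPM.

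**Figure D2:**
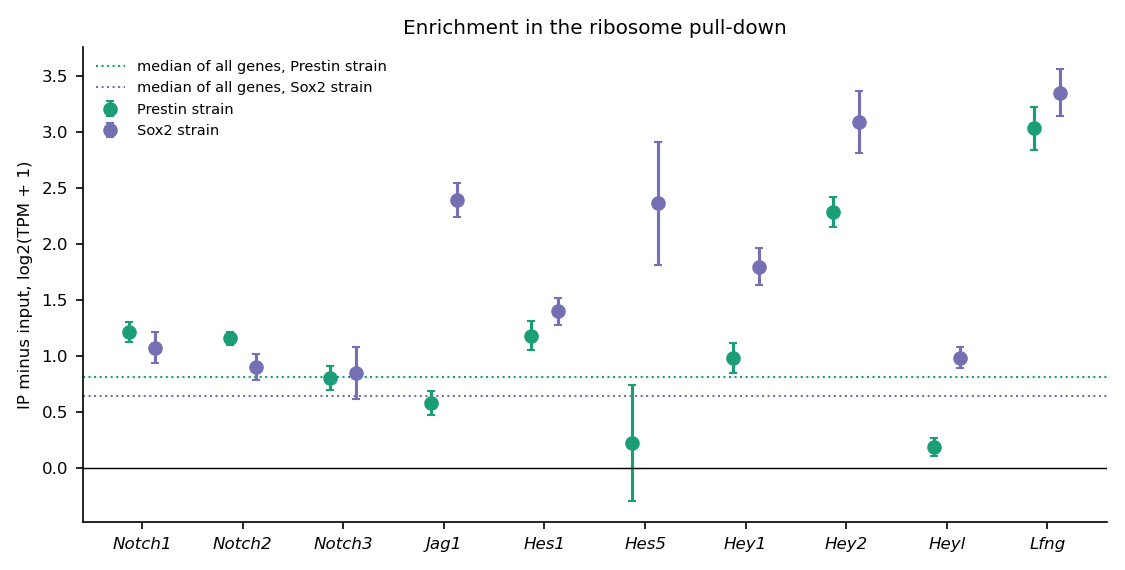
Difference between IP and input on the log2(TPM + 1) scale for each gene, as point and standard error, Prestin strain in green (9 IPs and 9 inputs) and Sox2 strain in violet (7 and 7). Dotted lines mark the median of all genes tested (0.82 and 0.65). Lfng and Hey2 lie highest in both strains, and Jag1 shows the widest gap with a small error.

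Set against each other over all 32 libraries, the enrichments differed for 3 of 10 genes, each lower in the Prestin strain; 7.62% of 19648 genes were lower in that comparison. These were Jag1 (-1.81 ± 0.18, adjusted p = 3.93e-07), Hey1 (-0.81 ± 0.21, adjusted p = 0.0093) and Heyl (-0.80 ± 0.12, adjusted p = 9.83e-05). Hes5 (-2.13 ± 0.79, adjusted p = 0.058) and Hey2 (-0.81 ± 0.29, adjusted p = 0.054) missed the threshold. Most fits without 1 homogenate left them short of it, though both passed without Prestin control replicate 2 (adjusted p = 0.026 and 0.046). With the homogenate as a block Hey2 passed as well (adjusted p = 0.024). The smallest differences were those of Notch3 (-0.04 ± 0.24) and Notch1 (0.14 ± 0.16). With the control libraries alone none of the 10 passed, and Jag1 was -1.04 ± 0.33 (adjusted p = 0.13). Median-of-ratios scaling kept Jag1, Hey1 and Heyl lower and added Hey2, and moved the share of higher calls among all genes from 64.7% to 44.6%.

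The next comparison asked how the genes moved in the whole cochlea after noise, over the 16 inputs with strain as a covariate. At 6 h, 3 of 10 genes passed in either direction, against 8.54% of 14204 genes. Jag1 and Hes1 rose and Heyl fell. Higher genes made up 44.8% of all calls, or 65.0% with median-of-ratios scaling. Control inputs had 5.66, 5.88 and 5.42 TPM of Jag1 in the Prestin strain and 4.04 and 4.55 TPM in the Sox2 strain. At 6 h they had 7.78, 6.13 and 6.97 TPM and 7.64 and 7.99 TPM, so that no library at 6 h overlapped the controls of its strain. The change was 0.45 ± 0.10 (adjusted p = 0.010). Within strains it was 0.25 ± 0.10 for Prestin and 0.74 ± 0.14 for Sox2, neither passing alone (adjusted p = 0.19 and 0.077).

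Hes1, a widely expressed target, was at 21.0, 24.5 and 23.6 TPM in the Prestin control inputs and 27.1 and 24.2 TPM in the Sox2 control inputs. It was at 40.6, 27.3 and 32.8 TPM and 39.8 and 36.2 TPM at 6 h, above the controls of its strain in every library. The rise was 0.53 ± 0.12 (adjusted p = 0.015), and within strains 0.51 ± 0.14 and 0.55 ± 0.20 (adjusted p = 0.082 and 0.21). Heyl fell by 0.32 ± 0.08 on the log2 scale (adjusted p = 0.028), from 22.3, 28.4 and 22.9 TPM to 21.1, 18.4 and 21.96 TPM in the Prestin and from 28.2 and 30.3 TPM to 23.6 and 19.4 TPM in the Sox2 inputs. Its call was lost without any of 4 single inputs (Prestin control replicate 2, Sox2 control replicates 1 and 4 and Sox2 6 h replicate 4; adjusted p = 0.058 to 0.072), without mitochondrial genes and Malat1 (0.078) and with median-of-ratios scaling (-0.25, adjusted p = 0.12), where Notch1 passed instead (0.37, adjusted p = 0.029).

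By 24 h none of the 10 passed against control with limma, beside 4.44% of all genes. Of the 10, 2 had an unadjusted p under 0.05 (Notch2 at 0.22 ± 0.09 and Hes5 at -1.46 ± 0.55), as had 2208 of all 14204 genes. Between 6 h and 24 h 3 of 10 passed, against 16.1% of all genes, of which 78.4% were higher (56.2% with median-of-ratios scaling). Heyl was higher at 24 h by 0.44 ± 0.08 (adjusted p = 0.0020) and Notch2 by 0.39 ± 0.09 (adjusted p = 0.0094), while Jag1 was lower by -0.43 ± 0.09 (adjusted p = 0.0055). Jag1 was back at 5.22, 6.00 and 5.32 TPM in the Prestin and 4.42, 4.51 and 5.05 TPM in the Sox2 inputs, and Notch2 had 4.79, 4.81 and 4.21 TPM and 4.51, 3.68 and 4.94 TPM.

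Fitted within 1 strain, the inputs called other targets. Hey2 in the Prestin inputs was at 11.4, 9.68 and 10.0 TPM without noise, 7.48, 7.40 and 7.63 TPM at 6 h and 6.88, 7.12 and 7.29 TPM at 24 h. All 6 exposed libraries lay below all 3 controls, by -0.42 ± 0.08 at 6 h (adjusted p = 0.025) and -0.49 ± 0.08 at 24 h (adjusted p = 0.014). The Sox2 inputs did not show this order, with 6.06 and 4.96 TPM, then 4.48 and 11.9 TPM, then 4.18, 4.58 and 7.61 TPM of Hey2. The difference between the strains' input responses, which was tested only after the data had been seen, passed for none of the 10 genes at 6 h or 24 h with limma. Unadjusted p lay under 0.05 for 2 genes at 6 h (Hes5 and Lfng) and 0 at 24 h. It did so for 1145 and 495 of all 19648 genes, and with the adjusted p 0.0305% and 0.00509% passed.

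**Figure D3:**
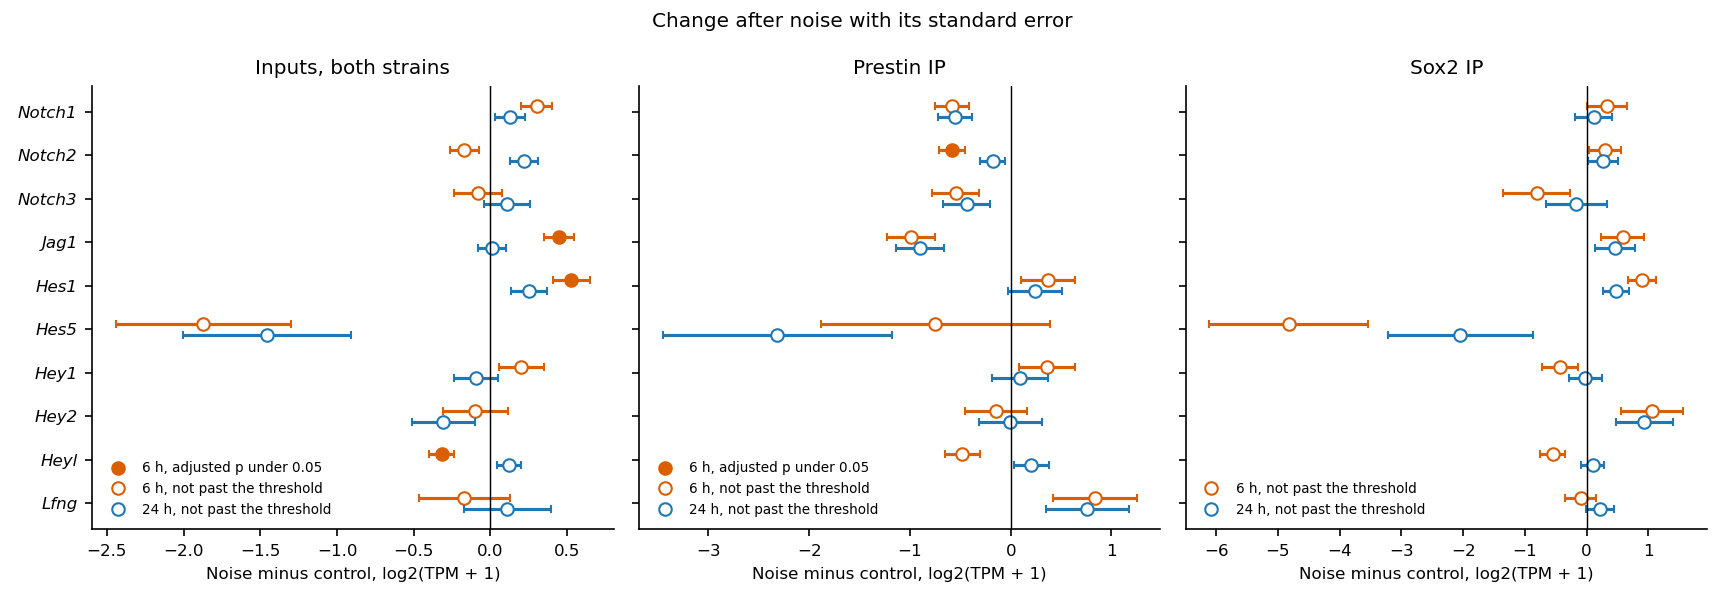
Change after noise on the log2(TPM + 1) scale with its standard error, 6 h in orange and 24 h in blue, for the inputs of both strains (16 libraries), the Prestin IPs (9) and the Sox2 IPs (7). Filled points passed the adjusted threshold; the horizontal scales differ between panels. Jag1 lies right of 0 in the inputs at 6 h (0.45) and left of it in the Prestin IPs (-0.99).

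In the Prestin IPs, Notch1, Notch2, Notch3 and Jag1 had lower means after noise, and of these only Notch2 at 6 h passed. The control IPs also stood apart in other RNA. The nuclear RNA Malat1 was at 44030 to 73023 TPM in the 3 controls and at 12251 to 22823 TPM in the 6 exposed IPs, without overlap. Mitochondrial genes made up 4.91% to 8.40% of the controls, 10.6% to 13.7% of the libraries at 6 h and 7.40% to 13.1% at 24 h. With these genes left out the changes at 6 h were -0.57 for Notch2 (adjusted p = 0.056), -0.98 for Jag1 and -0.56 for Notch1; any further part of this shift was not tested. The median of all genes was -0.17 at 6 h and -0.15 at 24 h, and 0.03 at both with median-of-ratios scaling, which moved the share of higher calls from 15.2% to 44.6% and from 17.6% to 40.7%. Notch2 was at 12.3, 11.4 and 12.03 TPM in the controls, 7.43, 7.82 and 7.66 TPM at 6 h and 10.4, 10.3 and 10.59 TPM at 24 h. The 3 groups did not overlap, and the libraries within each lay close together. At 6 h Notch2 was lower by -0.58 ± 0.12 (adjusted p = 0.041), 1 of 10 genes lower beside 4.77% of all 16703. That call was lost when any 1 of the 9 Prestin IPs was left out (adjusted p = 0.057 to 0.13, values from -0.61 to -0.56), with no filter on low values, without mitochondrial genes and Malat1, and with median-of-ratios scaling (-0.37, adjusted p = 0.14). Its value at 24 h (-0.18) changed sign under that scaling (0.014). A joint fit with the inputs, with the same values and smaller standard errors, called Notch1, Notch2, Notch3, Jag1 and Heyl.

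Jag1 in the Prestin IPs went from 19.1, 13.2 and 13.9 TPM to 7.57, 5.17 and 9.35 TPM at 6 h and 7.33, 9.03 and 6.89 TPM at 24 h. All exposed libraries lay below all controls, though neither change passed on the IPs alone (-0.99 ± 0.24, adjusted p = 0.053, and -0.90 ± 0.24, adjusted p = 0.064). Notch1 had 29.8, 26.005 and 23.0 TPM, then 20.1, 14.8 and 16.9 TPM, then 15.8, 19.8 and 16.985 TPM, likewise without overlap (-0.58 ± 0.17, adjusted p = 0.081, and -0.56 ± 0.17, adjusted p = 0.090). At 24 h none of the 10 passed with limma, beside 6.23% of all genes. Of the 10, 2 had an unadjusted p under 0.05 (Jag1 and Notch1), as had 4386 of all 16703 genes. Between 24 h and 6 h none passed either, beside 0.102% of all genes. There 2 had an unadjusted p under 0.05 (Heyl at 0.68 ± 0.17 and Notch2 at 0.40 ± 0.12), as had 1328 of all genes. None of the targets passed on the IPs alone, and their values went both ways. At 6 h and 24 h Hes1 was 0.37 ± 0.27 and 0.24 ± 0.27, and Hey1 0.36 ± 0.28 and 0.09 ± 0.28. Heyl was -0.48 ± 0.17 at 6 h (unadjusted p = 0.025, adjusted p = 0.13, or 0.025 in the joint fit) and 0.20 ± 0.17 at 24 h. Hes5 was -0.75 ± 1.14 and -2.32 ± 1.14, from 0.481 to 25.3 TPM in the controls, 0 to 9.49 TPM at 6 h and 0 to 0.953 TPM at 24 h. Lfng was 0.83 ± 0.42 at 6 h, or 0.27 ± 0.12 without control replicate 1, and Hey2 -0.14 ± 0.31, or 0.086 with median-of-ratios scaling and -0.54 ± 0.14 without control replicate 1 (adjusted p = 0.091). Summed outer hair cell markers ran from 824 to 2225 TPM in the control IPs, 515 to 835 TPM at 6 h and 786 to 900 TPM at 24 h. None of the 10 markers passed at 6 h (median -0.72), and the part of this shift in the values above was not tested.

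Set against the inputs of the same homogenates, the Prestin response at 6 h was lower in the IP for 2 of 10 genes, beside 2.27% of 17363 genes. Jag1 differed by -1.24 ± 0.25 (adjusted p = 0.030), from 0.25 in the inputs and -0.99 in the IPs, and Notch1 by -0.93 ± 0.22 (adjusted p = 0.045). Neither passed with the homogenate as a block (adjusted p = 0.084 and 0.082), with a pseudocount of 0.1 TPM (0.051 and 0.065) or with median-of-ratios scaling (0.11 and 0.16). Without 1 homogenate both passed only where control replicate 2 was left out, and Jag1 also where 6 h replicate 3 was; the other 7 fits called neither (adjusted p up to 0.16). Higher genes were 6.19% of all calls, or 27.7% with median-of-ratios scaling. At 24 h none passed with limma, beside 1.04% of all genes. There 3 had an unadjusted p under 0.05 (Jag1, Notch1 and Notch2), as had 3031 of all 17363 genes.

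In the Sox2 IPs none of the 10 genes passed against control at either time, or between the times, with limma. Unadjusted p lay under 0.05 for 3 genes at 6 h, 0 at 24 h and 1 between the times. It did so for 3173, 2028 and 2159 of all 17577 genes. With the adjusted p, 0.694%, 0.188% and 0.506% of all genes passed. The median of all genes at 24 h was 0.14 against control and 0.22 against 6 h, or 0.03 and 0.07 with median-of-ratios scaling. The 3 at 6 h were targets. Hes1 was at 75.5 and 52.6 TPM in the controls, 119 and 118 TPM at 6 h and 101, 90.2 and 75.7 TPM at 24 h. Both libraries at 6 h lay above both controls, by 0.90 ± 0.23 (adjusted p = 0.13). Heyl was at 60.4 and 58.9 TPM, then 44.5 and 36.7 TPM (-0.55 ± 0.21, adjusted p = 0.24), then 55.7, 76.6 and 61.0 TPM. Hes5 was lower at 6 h by -4.83 ± 1.28 (adjusted p = 0.14), and a joint fit with the inputs called both Hes1 and Hes5. Jag1 was at 32.4 and 20.0 TPM, 39.5 and 37.9 TPM, then 24.7, 42.6 and 42.1 TPM, with no lower group after noise. The Sox2 response of IP and input differed for none of the genes at 6 h or 24 h with limma. Of 18560 genes, 0.269% and 0.0485% passed. At an unadjusted p under 0.05 were 0 of the 10 at both times, and 2030 and 1025 of all genes.

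The IP responses of the strains differed for 3 of 10 genes at 6 h and 1 at 24 h. Each was lower in the Prestin strain, beside 4.89% and 8.39% of all genes. These differences were fitted over all 32 libraries, so their standard errors drew on the spread of the inputs as well. On the IPs alone, the Jag1 response at 6 h had a standard error of 0.24 (Prestin) and 0.35 (Sox2). The difference between the strains was not fitted on the IPs alone. Jag1 differed by -1.57 ± 0.32 at 6 h (adjusted p = 0.0054) and -1.36 ± 0.30 at 24 h (adjusted p = 0.0086), Notch2 by -0.88 ± 0.20 at 6 h (adjusted p = 0.010) and Notch1 by -0.91 ± 0.28 (adjusted p = 0.0498). The call for Notch1 was lost in 26 of 32 fits without 1 library, with an adjusted p of up to 0.25 without Sox2 IP 6 h replicate 4. Both times share their control libraries. Median-of-ratios scaling left Jag1 at 6 h alone (-1.41, adjusted p = 0.018), and the call at 24 h was lost without Sox2 control IP replicate 4 (adjusted p = 0.064). That scaling moved the share of higher calls among all genes from 39.5% to 60.9% at 6 h and from 11.6% to 58.2% at 24 h, and the median of all genes at 24 h from -0.26 to 0.

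Of the 10 genes, Hes5 had the largest log2 changes after noise in the Sox2 strain. The Sox2 inputs had 15.7 and 16.6 TPM without noise, 0.231 and 0 TPM at 6 h, and 5.94, 4.29 and 3.47 TPM at 24 h. In the IPs of the same homogenates it had 146 and 94.5 TPM, then 0 and 16.4 TPM, then 23.6, 48.9 and 18.1 TPM. Controls, 6 h and 24 h did not overlap in either fraction. Within the Sox2 inputs the change was -3.95 ± 0.24 at 6 h (adjusted p = 0.0074) and -1.65 ± 0.22 at 24 h (adjusted p = 0.096), and over the inputs of both strains -1.87 ± 0.57 at 6 h (adjusted p = 0.058). The Prestin inputs had 1.62, 3.67 and 4.79 TPM, then 0.905, 2.50 and 2.88 TPM, then 0.696, 0.636 and 0.139 TPM; only the libraries at 24 h lay below all controls (-1.50 ± 0.37, adjusted p = 0.059). The difference between the strains at 6 h was 3.47 ± 1.42 (unadjusted p = 0.023, adjusted p = 0.73). For 1982 genes both Sox2 control inputs lay within 1.5 times the range of Hes5. Of these, 7 (0.353%) were as low as Hes5 in both inputs at 6 h. In the IPs 20 of 1289 such genes (1.55%) were. Hes5 is counted among them. Its own values, already seen, set both the window and the cut-off, so these shares describe Hes5 and test nothing. In the make-up of the 5 Hes and Hey genes, Hes5 took 29.5% ± 0.47 of the summed TPM in the Sox2 control IPs (SD, n = 2), 2.22% ± 3.14 at 6 h (n = 2) and 7.83% ± 3.37 at 24 h (n = 3). The sum itself stayed within its spread, at 407 TPM ± 117, 335 TPM ± 47.8 and 375 TPM ± 43.5.

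**Figure D4:**
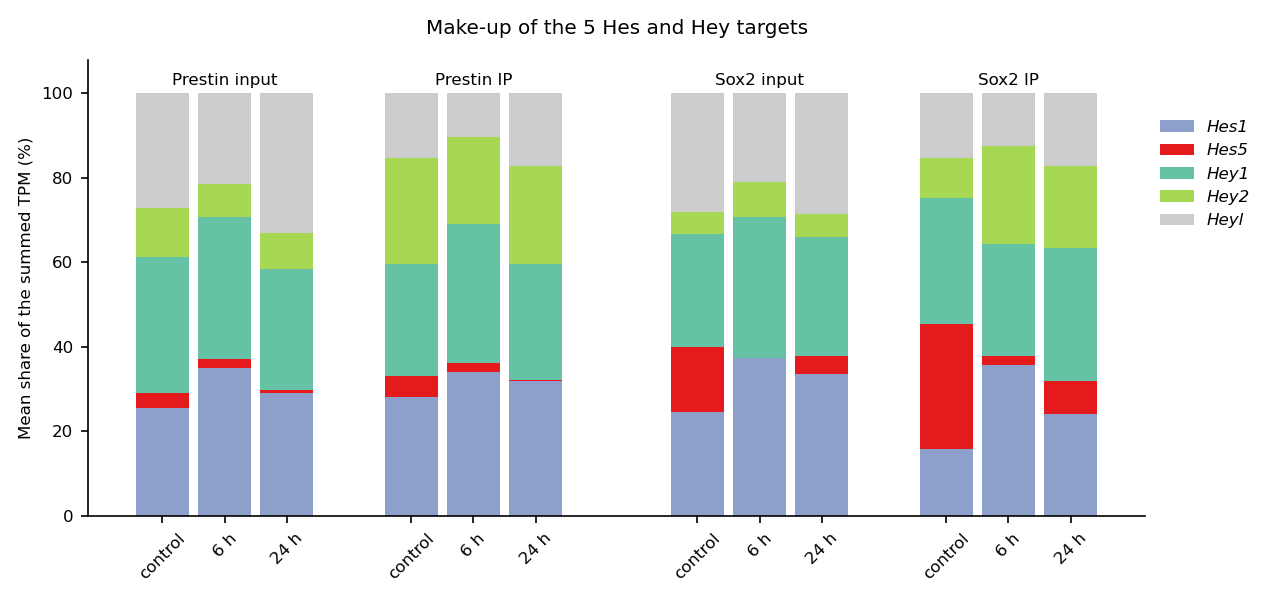
Mean share of each gene in the summed TPM of Hes1, Hes5, Hey1, Hey2 and Heyl, 1 bar per group of 2 or 3 libraries, in percent. The share of Hes5 (red) is 29.5% in the Sox2 control IPs and 15.5% in the Sox2 control inputs. It is under 8% in every other group, the Prestin controls included.

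The genes whose levels followed Hes5 most closely over the 32 libraries, by Pearson correlation of log2(TPM + 1) among 9537 genes, were Ncan (0.85), Cspg5 (0.82) and Nsg2 (0.81). Ncan and Cspg5 encode proteoglycans known from brain tissue, and Nsg2 a neuronal protein. Ncan had 4.46 and 3.97 TPM in the Sox2 control inputs, 0.379 and 0.0277 TPM at 6 h and 2.53, 1.44 and 1.02 TPM at 24 h. A list of 8 genes of oligodendrocytes and astrocytes, the glia of the central nervous system, was then drawn up (Olig1, Olig2, Slc1a2, Slc6a11, Aldh1l1, Mog, Mobp and Opalin). Their summed level ran from 632 to 860 TPM in the Sox2 control IPs, 20.7 to 92.6 TPM at 6 h and 67.0 to 557 TPM at 24 h. In the Sox2 inputs it ran from 49.0 to 90.4 TPM, then 6.46 to 12.7 TPM, then 14.4 to 51.6 TPM. Most of the sum in the control IPs was Olig1 (430 and 605 TPM), and in 24 h IP replicate 2 Olig1 had 351 TPM. In that library Olig1, Olig2 and Slc1a2 lay below both control IPs, Mog between them, and Slc6a11, Aldh1l1, Mobp and Opalin above both. At 6 h all but Mog lay below both control IPs. Opalin alone was at 0 in every Sox2 library at 6 h. Of the 8 genes, 0 passed in the Sox2 IPs at 6 h with limma (median -2.53), beside 0.694% of all genes. In the Sox2 IPs 5 of 8 were higher than in the inputs, beside 55.2% of all genes. The Sox2 library with the highest sum also had the most Hes5 in the control inputs, the 6 h IPs and the 24 h IPs. It did not in the control IPs, the 6 h inputs and the 24 h inputs. In the control IPs, Hes5 was at 94.5 TPM beside a sum of 860 TPM, and at 146 TPM beside 632 TPM. The list was chosen after these values were seen, and the part of such RNA in the Hes5 values was not tested. In the Prestin strain the sum lay between 8.36 and 72.0 TPM in all 18 libraries, with no group apart.

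**Figure D5:**
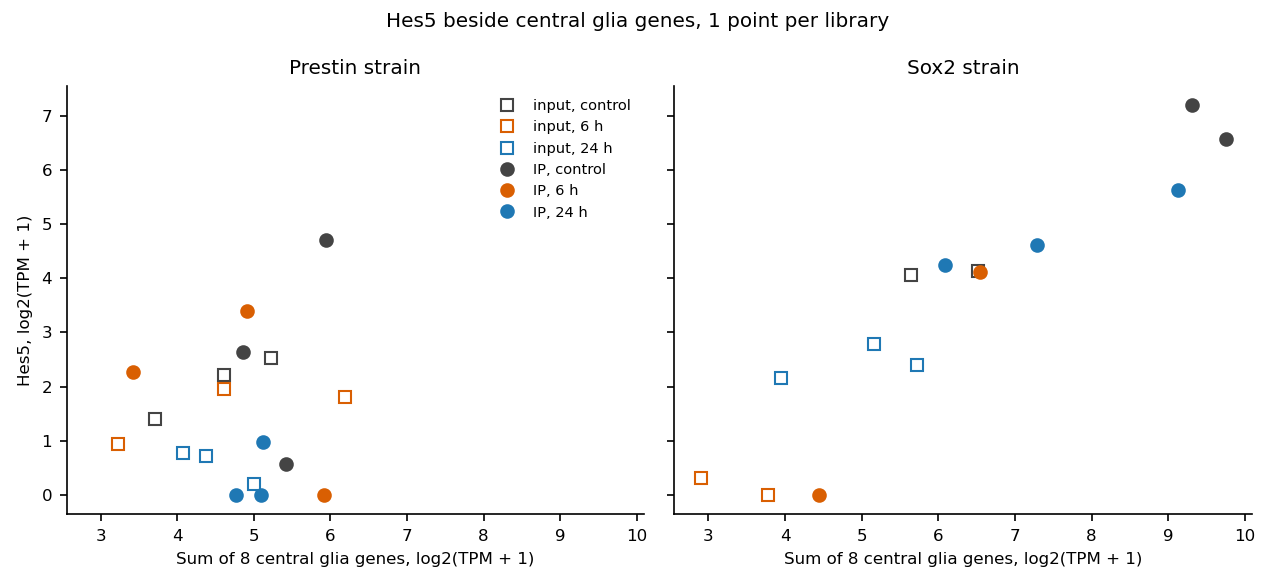
Hes5 (vertical) against the summed level of 8 central glia genes (horizontal), both as log2(TPM + 1), 1 point per library; filled circles are IPs and open squares inputs. In the Sox2 strain the control IPs lie at the top right (94.5 and 146 TPM of Hes5 beside 860 and 632 TPM) and both 6 h inputs at the bottom left; the Prestin libraries show no such order.

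Around these genes, a list of 52 further genes of the pathway, ordered by role, was followed. In the Prestin IPs 43 of 48 tested were higher than in the inputs and 1 lower (median 1.30, all genes 0.82). In the Sox2 IPs 41 of 49 were higher and 0 lower (median 1.01, all genes 0.65). Of all genes, 68.5% and 55.2% were higher. This list was not refitted with median-of-ratios scaling, which took calls from the 10 genes. Among the genes with the smallest p in the Prestin strain were the ubiquitin ligases Dtx2 (2.16 ± 0.08) and Itch (1.42 ± 0.07), the corepressor Spen (1.94 ± 0.08), the protease Adam17 (2.02 ± 0.10) and Pofut1 (1.47 ± 0.08), which adds the fucose that Lfng extends. In the Sox2 strain the 6 with the smallest p were the proteases Adam10 (1.80 ± 0.09) and Adam17 (1.65 ± 0.11), which make the first cut of the bound receptor, Psen2 (1.27 ± 0.10) of the gamma-secretase, which makes the next, the corepressor Tle3 (1.29 ± 0.09), the coactivator Maml1 (1.94 ± 0.15) and Pofut1 (1.01 ± 0.07). The enrichments of the strains differed for 12 of 50 genes, 10 higher and 2 lower in the Prestin strain, beside 14% and 7.62% of all genes. Spen (0.74 ± 0.15), Pofut1 (0.46 ± 0.10) and the receptor Notch4 (0.68 ± 0.18), known from endothelium, were higher there, and Snw1 (-0.82 ± 0.14) and the gamma-secretase subunit Ncstn (-0.68 ± 0.16) were lower. Endothelial markers were higher for 9 of 10 in the Prestin IPs (median 1.13, all genes 0.82) and for 5 of 10 in the Sox2 IPs (median 0.55, all genes 0.65); their part in the Notch4 value was not tested.

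After noise, few genes of the list passed in the inputs. At 6 h Adam10 rose by 0.28 ± 0.08 (adjusted p = 0.042) and Aph1c, another subunit of the gamma-secretase, fell by 0.34 ± 0.09 on the log2 scale (adjusted p = 0.026), 2 of 42 tested beside 8.54% of all genes. At 24 h the subunit Ncstn rose (0.39 ± 0.08, adjusted p = 0.0094). In the Prestin IPs, Numbl, a relative of the Notch inhibitor Numb, went from 24.8 TPM ± 3.25 to 13.4 TPM ± 1.99 at 6 h and 13.2 TPM ± 1.60 at 24 h (SD, n = 3 each). It fell at both times, as did the ubiquitin ligase Dtx3 (-0.70 ± 0.15 and -0.99 ± 0.15) and the corepressor Spen (-0.61 ± 0.13 and -1.01 ± 0.13); both times share the control libraries. The corepressor Tle2 (-1.26 ± 0.26) fell at 24 h. Thus 3 of 48 were lower at 6 h and 5 at 24 h, beside 4.77% and 5.14% of all genes. These falls were not refitted with median-of-ratios scaling, which took the Notch2 call at 6 h in the same IPs. The part of the higher Malat1 of the Prestin control IPs in them was not tested. In the Sox2 IPs 0 of 48 passed at either time with limma. At an unadjusted p under 0.05 were 10 and 6 of them, and 3173 and 2028 of all 17577 genes. Neurog1, a neurogenic factor, was listed at 0 in each Prestin control IP, at 1.51 to 2.40 TPM at 6 h and at 0 to 0.273 TPM at 24 h. It met the filter on low values only through the libraries at 6 h, so its call there is not counted. The IP responses of the strains differed for 4 of 50 at 6 h, each lower in the Prestin strain, beside 4.89% of all genes: Numb (-1.06 ± 0.23), Notch4 (-1.15 ± 0.32), Snw1 (-0.87 ± 0.24) and the Fringe enzyme Mfng (-1.47 ± 0.45). Atoh1, the hair cell factor that Hes and Hey proteins restrain during development, was listed at 0 in all 16 inputs and in all but 3 IPs. Those were 1 of 3 Prestin IPs at 6 h (3.10 TPM), 1 of 3 Prestin IPs at 24 h (1.15 TPM) and 1 of 3 Sox2 IPs at 24 h (1.74 TPM), so no group was above 0 throughout. It is named here after its values were seen.

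Over the 32 libraries the 10 genes did not all vary together, and shared enrichment in the pull-downs enters each of these correlations of log2 values. Lfng and Hey2 were closest (r = 0.90), then Hey1 and Hes1 (0.88), and Hes5 and Notch2 were the least alike (0.11). The nearest other gene was Tbcel for Lfng (0.98), Gjc3 for Hey2 (0.98), Afap1 for Notch2 (0.97), Son for Notch1 (0.96), Fgfr3 for Hey1 (0.95), Slc12a7 for Jag1 (0.95), Tmprss3 for Hes1 (0.95), Smoc1 for Heyl (0.94) and Bms1 for Notch3 (0.91). Fgfr3 is known from pillar and Deiters' cells, and Otog, second for Jag1 (0.95), encodes otogelin of the tectorial membrane. Both belong to the supporting cell markers used here, and none of the other nearest genes named is on a marker list. Schwann and satellite glia markers rose in the Sox2 IPs as well (median 2.40, supporting cell markers 1.99). Which cells lie behind these likenesses was not tested.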

How the data were processed

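Per the labels' protocols, a NEBNext Ultra Directional kit turned RNA into libraries from an aliquot of homogenate (input) and its HA pull-down (IP). The authors deposited TPM values per gene, which sum to 1000000 in each library; depth is therefore unknown. The submitters' processing notes name TopHat and GRCm38. Which counter and annotation were used, and whether strand was, is not given in the sources used here. Comparisons across strains used the 39399 genes listed for both.

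From these, log2(TPM + 1) was computed and limma 3.58.1 (R 4.3.3; lmFit, then eBayes with its trend option) was fitted over all genes with at least 1 TPM in 3 (Prestin), 2 (Sox2 and both strains) or 5 (inputs) libraries, with Benjamini-Hochberg adjustment over all genes tested and a threshold of 0.05. Fold changes on this scale understate the change of low genes. IP against input averaged the conditions. Differences of responses were interaction terms, and those between strains were fitted over all 32 libraries, inputs included. The script was tested on simulated data. A value that passes in neither fit was given no direction across alternatives, which were another pseudocount (0.1 TPM), no filter, median-of-ratios scaling, leaving out mitochondrial genes and Malat1, blocks, joint or single-strain fits, control libraries alone and leaving out each library or homogenate.

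IP and input of 1 homogenate pair by design: their deviations from group means correlated with r = 0.019 to 0.267, best with their own partner in 16 of 16. Deviations within a group sum to 0, and in a group of 2 libraries they mirror each other, so the 16 are not independent. The members, the 52-gene pathway list and the 9 marker lists were chosen with earlier results of these data known. Up to 6 pathway genes with the smallest p were named per comparison, plus genes a sentence needed, and the nearest genes by correlation with a mean of at least 5 TPM. The Prestin minus Sox2 input responses and the list of central glia were added after the data were seen. So was the count of genes with levels like those of Hes5. Positions came from GENCODE M21. Results for some genes of the pathway list are not reported here.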

Additional observations from a re-analysis of the deposited data

Results flagged for a closer look

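Differences between strains or fractions that passed their own test in the main fit are listed here with their values. The enrichment in the IP was smaller in the Prestin than in the Sox2 strain for Jag1 (-1.81), Hey1 (-0.81) and Heyl (-0.80). In the Prestin strain at 6 h the IP response lay below the input response for Notch1 (-0.93) and Jag1 (-1.24). Neither passed in limma with the homogenate as a block (adjusted p = 0.082 and 0.084). The IP response at 6 h was lower in the Prestin than in the Sox2 strain for Notch1 (-0.91), Notch2 (-0.88) and Jag1 (-1.57), and at 24 h for Jag1 (-1.36). With median-of-ratios scaling only Jag1 at 6 h still passed among these IP responses. Jag1 appears in each of these comparisons, and those within 1 strain and time share libraries. The differences between the strains' IP responses drew their spread from all 32 libraries, inputs included.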

How the results depend on the processing

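Of the refitted values of single genes, 3837 kept their side of the threshold, 113 fell below it, 35 passed in addition and 5 changed sign. Most of the 3837 passed in neither fit, so their number does not measure how stable the calls were. A change of sign was counted only where the main or the refitted value passed. With median-of-ratios scaling the Prestin enrichment turned to -0.058 for Notch3, -0.37 for Jag1, -0.064 for Hey1 and -0.85 for Heyl, and without mitochondrial genes and Malat1 to -0.0069 for Heyl, where the cause was not tested. Jag1 and Heyl passed as lower under median-of-ratios scaling. That scaling gave 5 genes passing in the Prestin enrichment (against 9) and 6 in the Sox2 enrichment (against 10), 0 in the Prestin IPs at 6 h, 0 in the Prestin IP minus input response at 6 h, and 1 (against 3) and 0 (against 1) in the strains' IP responses at 6 h and 24 h. The difference of enrichments held 0 genes with control libraries alone, from fewer samples, and 3 to 5 with single homogenates left out.

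In the inputs at 6 h the Prestin strain alone called 1 gene (Hey2) and the Sox2 strain alone 1 (Hes5), against 3 for both. At 24 h the Prestin inputs alone called 1 (Hey2) against 0, and between 24 h and 6 h each strain alone called 1 (Heyl; Hes5) against 3. Deviations of same replicate numbers correlated with r = -0.075 to 0.064, with both signs, and same numbers were not taken as pairs. With the replicate number as a block, inputs called 0 genes at 6 h and 1 between 24 h and 6 h, and the Prestin IPs 0 at 6 h. With the homogenate as a block the Prestin IP minus input response at 6 h called 0 of 2 genes; the block changed no other count by more than 1.5 times.

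The Prestin IP at 6 h (1 gene) held 0 with no filter, 0 without mitochondrial genes and Malat1, 0 to 0 with single libraries left out, and 5 in the joint fit. The joint fit also called 2 genes at 24 h, 2 between 24 h and 6 h and 2 in the Sox2 IPs at 6 h, against 0 each. Left-out libraries gave 0 to 1 genes in the Prestin IPs at 24 h and 0 to 2 for the strains' IP response at 24 h. The Prestin IP minus input response at 6 h held 0 genes with a pseudocount of 0.1 TPM, 1 with no filter, 1 without mitochondrial genes and Malat1, and 0 to 2 with homogenates left out. Where leaving out a library left 1 in a Sox2 group, limma assumed that it varied like the other groups. Unknown depth limits what values near 0 TPM, such as those of Hes5, can show.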
